A study of Danio rerio with 24 samples.

Results

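The 32 genes described here make cholesterol and fatty acids or govern that synthesis. They were taken from the deposited expression table by NCBI Gene number: 31 matched by their current zebrafish symbol and 1, the gene long known as acly, by an older symbol and appears here under its RefSeq symbol aclya. The table holds 39974 genes, of which 22682 were expressed enough to be tested, and all 32 members were among these. The set holds 21 enzymes of the mevalonate pathway and the route on to cholesterol, 6 genes of its regulation and of sterol uptake, and 5 lipogenic genes, meaning aclya and 4 genes of fatty acid synthesis. The enzymes are called sterol synthesis enzymes here and include ggps1, which acts on a side branch of the mevalonate pathway.

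Cholesterol is built from acetyl-CoA by the mevalonate pathway. HMG-CoA synthase and HMG-CoA reductase make mevalonate, the reductase being the rate-limiting enzyme and the target of statins. Mevalonate is turned into isoprenoid units, which are joined to farnesyl diphosphate and then to squalene. Squalene is closed to lanosterol, and a chain of endoplasmic reticulum enzymes trims lanosterol to cholesterol. Many of these genes are known targets of the sterol regulatory element binding proteins (SREBPs), membrane-bound transcription factors that INSIG proteins hold in the endoplasmic reticulum while sterols are plentiful and that are released when sterols run low. In mammals the srebf2 product acts mostly on sterol genes and the srebf1 product mostly on fatty acid genes. In a zebrafish larva the liver, the intestine and the yolk syncytial layer are the main sites of lipid handling.

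RNA came from whole wild-type zebrafish larvae of the AB strain, kept in the test solutions from 4 hours to 5 days after fertilization. The larvae formed 6 groups: a vehicle control, sodium arsenite at a lower (1 µM) and a higher dose (10 µM), the uranium salt uranyl nitrate at a lower (30 µg/L) and a higher dose (300 µg/L), and a mixture that combined the lower doses, 1 µM and 30 µg/L. Each group had 4 libraries, each from a pool of 10 larvae labelled as a biological replicate. The values are FPKM, read numbers per length of a gene and per size of a library, so that levels of different genes can be set side by side. Recovered read totals ran from 15456867 to 22987096 per library. A fold change is the difference between 2 group means on the log2(FPKM + 1) scale, on which changes of weakly expressed genes look smaller than they are. Errors of fold changes are standard errors (SE), levels are mean ± SD with n = 4, and adjusted p-values are from limma with Benjamini-Hochberg adjustment over the 22682 genes. A gene is said to have risen or fallen where its adjusted p was under 0.05. Values of single libraries are listed from replicate 1 to 4. In whole larvae, fewer cells of a type and less RNA per cell cannot be told apart.

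The members covered a wide range of levels in vehicle larvae. The highest was aclya at 33.4 ± 0.663 FPKM, followed by dhcr7 at 25.1 ± 2.75 and srebf2 at 23.0 ± 1.04. The lowest was scd at 0.394 ± 0.134 FPKM, with insig1 at 0.996 ± 0.139 and pmvk at 1.01 ± 0.128 above it, and these 3 rested on 11 to 147 reads per library. Close relatives differed in level: insig2 stood at 11.6 ± 0.44 FPKM against 0.996 ± 0.139 for insig1, and hmgcrb at 10.1 ± 0.521 against 5.78 ± 2.0 for hmgcra. Members also differed in how far they spread over all 24 libraries. The highest value exceeded the lowest by 7.26-fold for lss, 4.08-fold for mvda, 3.88-fold for sqlea and 3.72-fold for cyp51, against 1.17-fold for aclya and 1.25-fold for hmgcrb.

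**Figure D1:**
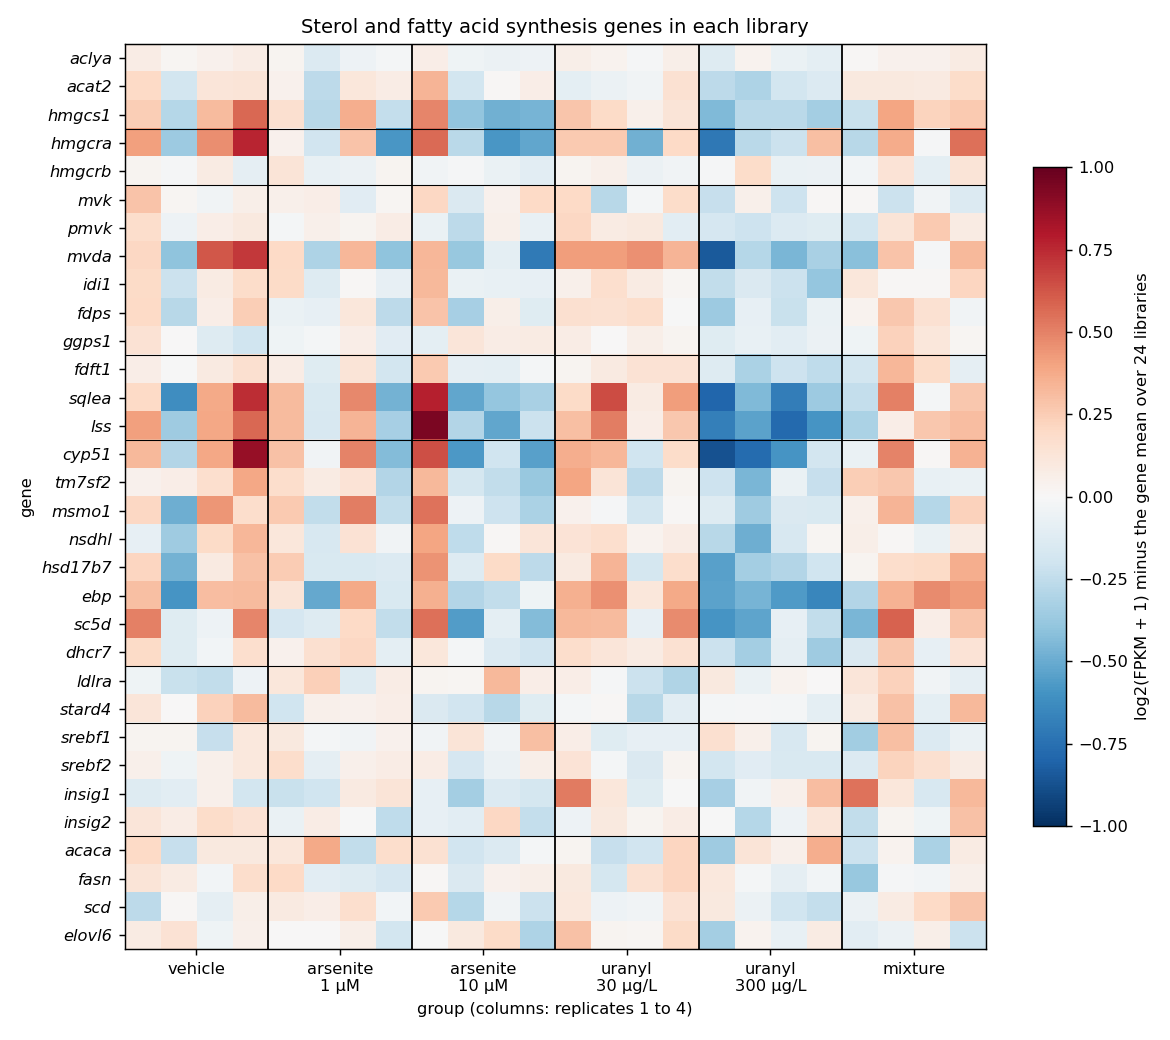
Each row is 1 of the 32 genes and each column 1 of the 24 libraries, grouped by exposure with replicates 1 to 4 from left to right. Colour gives log2(FPKM + 1) minus the gene's mean over the 24 libraries, clipped at 1 in both directions, and thin lines separate roles. In the 4 libraries at 300 µg/L uranyl nitrate most sterol enzymes are blue, replicate 2 of vehicle is blue within a red group, and replicate 1 of 10 µM arsenite is red within a blue group.

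The comparison of uranyl nitrate at 300 with 30 µg/L asks what the higher dose adds to the lower. It was the only one of 10 comparisons in which any member passed the test. At 300 µg/L, 6 of the 32 genes were lower and 0 were higher, or 18.8%, against 4.03% of all genes tested that were called lower. The members were chosen with earlier results of these data known, so this share is a description. All 6 belong to the 21 sterol synthesis enzymes, 28.6% of them: mvda and idi1 in the mevalonate steps, fdft1 and lss around squalene, and ebp and dhcr7 after lanosterol. None of the lipogenic or regulatory genes was called. By group means lss was 3.16-fold lower, mvda and ebp 2.17-fold lower, dhcr7 1.32-fold, fdft1 1.29-fold and idi1 1.28-fold.

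Taken as a whole, with the 6 called genes counted in, the enzymes leaned the same way. Of the 21 enzymes 20 had a negative fold change, with a median of -0.33 against -0.0014 over all genes tested. At an unadjusted p under 0.05, 16 of the 32 members were lower and none was higher, against 11.8% of all genes lower. In 14 members, all of them enzymes, every library at 300 µg/L lay below every library at 30 µg/L, against 8.26% of all genes. The 5 lipogenic genes had a median of -0.10, and 4 of them were negative. Leaving out each library in turn left 0 to 3 members called, ebp in 7 of these 8 fits, dhcr7 in 6, mvda in 2, and idi1, fdft1 and lss in none, while the count over all genes ranged from 465 to 1354 against 1509 with all libraries. Without replicate 4 of 300 µg/L no member was called. In each of these fits the 6 genes kept a negative fold change.

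**Figure D2:**
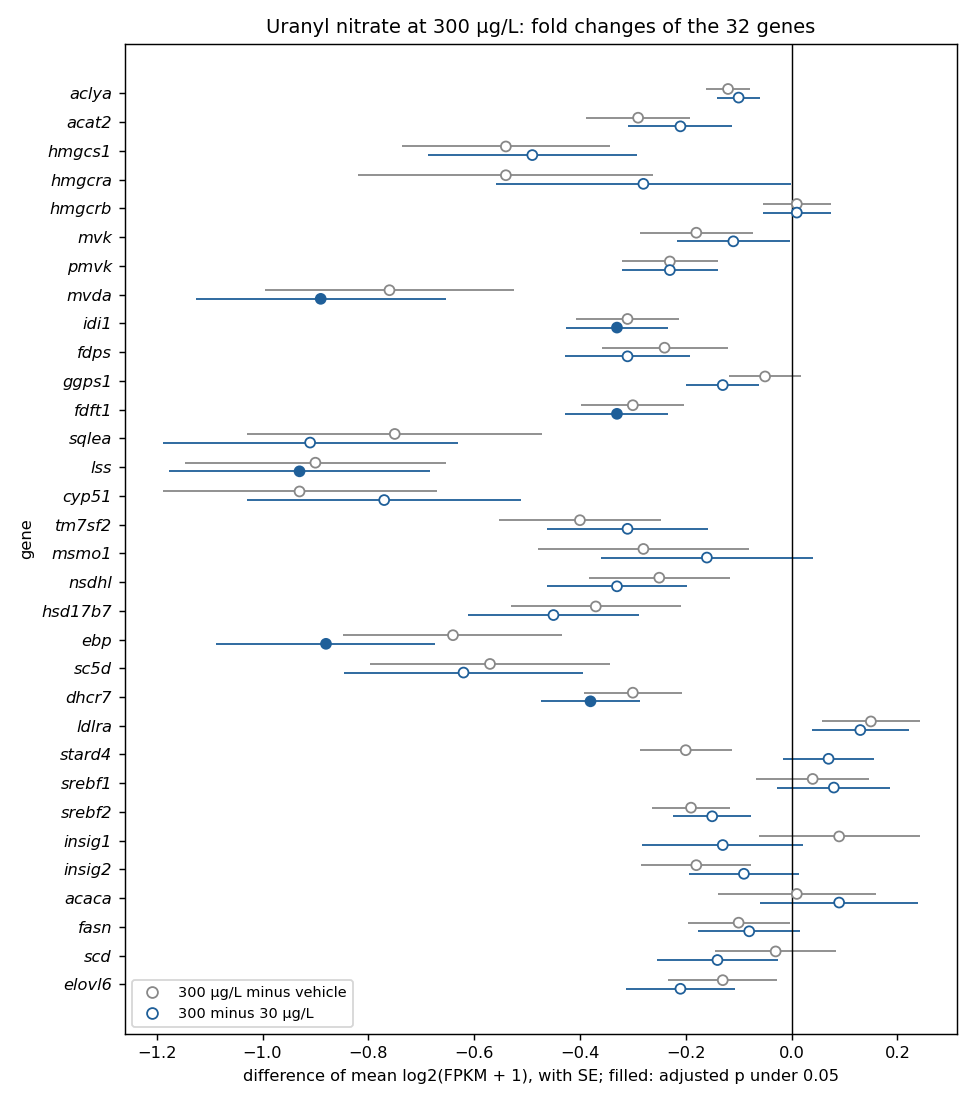
Points give the difference of mean log2(FPKM + 1) for each of the 32 genes and bars its SE, in grey for 300 µg/L uranyl nitrate minus vehicle and in blue for 300 minus 30 µg/L. Filled points have an adjusted p under 0.05, which holds for 6 genes in the comparison of doses and for none against vehicle. The 2 comparisons share the libraries at 300 µg/L.

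Cytosolic acetyl-CoA and its condensation came first in the pathway. aclya encodes ATP-citrate lyase, which makes cytosolic acetyl-CoA from citrate, and ranged only from 29.2 to 34.2 FPKM over all 24 libraries. Its fold change for 300 against 30 µg/L was -0.10 (SE 0.0413, adjusted p = 0.168). acat2, a thiolase that joins acetyl-CoA units, stood at 9.74 ± 0.573 FPKM at 300 µg/L and 11.4 ± 0.991 at 30 µg/L, a fold change of -0.21 (adjusted p = 0.224) although the groups did not overlap. hmgcs1 measured 11.3, 12.9, 12.9 and 12.2 FPKM at 300 µg/L, 19.3, 18.1, 16.3 and 17.3 at 30 µg/L, and 18.8, 12.7, 19.8 and 23.9 in vehicle. The hmgcs1 values were 17.7, 12.8, 20.5 and 13.2 FPKM with 1 µM arsenite, 22.5, 11.7, 11 and 11.1 with 10 µM, and 13.3, 21, 18.5 and 19 with both metals. Every library at 300 µg/L was lower in hmgcs1, the HMG-CoA synthase gene, than every library at 30 µg/L, while 1 vehicle library, replicate 2, lay within the range at 300 µg/L. The fold changes, -0.49 (SE 0.197, adjusted p = 0.143) against 30 µg/L and -0.54 (SE 0.197, adjusted p = 0.155) against vehicle, did not pass the test.

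HMG-CoA reductase is encoded by a pair of zebrafish genes, and they varied differently. hmgcra measured 2.19, 3.34, 3.51 and 5.44 FPKM at 300 µg/L, 5.28, 5.26, 2.74 and 5 at 30 µg/L, and 5.96, 3.07, 6.21 and 7.89 in vehicle. The hmgcra values were 4.4, 3.57, 5.36 and 2.5 FPKM with 1 µM arsenite, 6.73, 3.35, 2.49 and 2.64 with 10 µM, and 3.31, 5.75, 4.2 and 6.68 with both metals. For hmgcra all groups overlapped, and 300 µg/L differed from 30 µg/L by -0.28 (SE 0.279, adjusted p = 0.62) and from vehicle by -0.54 (SE 0.279, adjusted p = 0.34). hmgcrb was steadier, at 9.29 to 11.6 FPKM over all 24 libraries. Its fold change was 0.01 (SE 0.0642) in both comparisons. Within groups, hmgcra followed the other enzymes with a median Pearson correlation of 0.65 and hmgcrb with 0.10.

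The mevalonate and isoprenoid steps held 2 of the 6 genes that fell. mvda measured 1.65, 2.88, 2.45 and 2.77 FPKM at 300 µg/L, 5.31, 5.32, 5.49 and 4.99 at 30 µg/L, and 4.46, 2.57, 6.27 and 6.71 in vehicle. The mvda values were 4.42, 2.81, 4.97 and 2.57 FPKM with 1 µM arsenite, 4.97, 2.63, 3.43 and 1.9 with 10 µM, and 2.55, 4.78, 3.69 and 4.92 with both metals. mvda encodes the decarboxylase that turns mevalonate diphosphate into isopentenyl diphosphate. The libraries at 300 µg/L lay below those at 30 µg/L without overlap, and vehicle replicate 2 again lay within the range at 300 µg/L. mvda fell by 0.89 on the log2 scale (SE 0.236, adjusted p = 0.0288), from 5.28 ± 0.208 to 2.43 ± 0.557 FPKM. idi1 measured 8.38, 9.04, 8.58 and 7.51 FPKM at 300 µg/L, 10.5, 11.5, 10.8 and 10.3 at 30 µg/L, and 11.7, 8.58, 10.8 and 11.6 in vehicle. The idi1 values were 11.7, 9.18, 10.2 and 9.5 FPKM with 1 µM arsenite, 12.9, 9.61, 9.59 and 9.48 with 10 µM, and 11, 10.2, 10.2 and 11.9 with both metals. idi1, the isomerase of isopentenyl diphosphate, had no overlap between the uranyl doses and fell by 0.33 (SE 0.0969, adjusted p = 0.0458). Vehicle replicate 2 lay within its range at 300 µg/L.

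The other 4 genes of these steps were not called. fdps, the farnesyl diphosphate synthase gene, stood at 14.7 ± 1.47 FPKM at 300 µg/L and 18.4 ± 1.13 at 30 µg/L (fold change -0.31, adjusted p = 0.132), without overlap. The kinase gene pmvk stood at 0.711 ± 0.0445 against 1.01 ± 0.177 FPKM (-0.23, adjusted p = 0.144), also without overlap. mvk, the first kinase of the route, had 42 to 81 reads per library and overlapped between the doses (-0.11, adjusted p = 0.599). ggps1 stood at 8.66 ± 0.203 against 9.57 ± 0.228 FPKM (-0.13, adjusted p = 0.289), again without overlap. Its product leads to the geranylgeranyl groups put on proteins and so leaves the sterol route.

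The squalene steps, which commit the pathway to sterols, held 2 more of the called genes. fdft1 measured 8.11, 6.97, 7.63 and 7.35 FPKM at 300 µg/L, 9.12, 9.61, 9.97 and 9.97 at 30 µg/L, and 9.42, 8.94, 9.56 and 10.1 in vehicle. The fdft1 values were 9.48, 8.15, 9.88 and 7.75 FPKM with 1 µM arsenite, 10.9, 8.37, 8.27 and 8.79 with 10 µM, and 7.78, 11.5, 10.3 and 8.34 with both metals. fdft1 encodes squalene synthase. Its libraries at 300 µg/L lay below all of those at 30 µg/L and all vehicle libraries, and fdft1 fell by 0.33 against 30 µg/L (SE 0.0973, adjusted p = 0.0469). sqlea measured 2.18, 3.07, 2.41 and 3.29 FPKM at 300 µg/L, 5.32, 7.69, 4.85 and 6.39 at 30 µg/L, and 5.35, 2.59, 6.19 and 8.22 in vehicle. The sqlea values were 5.89, 3.97, 6.69 and 2.97 FPKM with 1 µM arsenite, 8.45, 2.86, 3.23 and 3.41 with 10 µM, and 3.69, 6.82, 4.45 and 5.65 with both metals. sqlea encodes squalene epoxidase, an oxygen-using step often described as rate-limiting after the reductase. The uranyl doses did not overlap, but the fold change of -0.91 (SE 0.279) had an adjusted p of 0.0524 and was not called, and vehicle replicate 2 lay within the range at 300 µg/L.

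lss measured 0.688, 0.87, 0.577 and 0.802 FPKM at 300 µg/L, 2.33, 2.86, 1.83 and 2.27 at 30 µg/L, and 2.59, 1.12, 2.54 and 3.03 in vehicle. The lss values were 2.37, 1.42, 2.43 and 1.15 FPKM with 1 µM arsenite, 4.19, 1.21, 0.888 and 1.33 with 10 µM, and 1.17, 1.84, 2.27 and 2.35 with both metals. lss encodes lanosterol synthase, which closes the ring system. The 4 libraries at 300 µg/L were the lowest of all 24, a ranking read after the values were seen. lss fell by 0.93 against 30 µg/L (SE 0.247, adjusted p = 0.0285), from 2.32 ± 0.423 to 0.734 ± 0.129 FPKM. Those 4 libraries had 30 to 37 lss reads each, and those at 30 µg/L had 81 to 158.

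**Figure D3:**
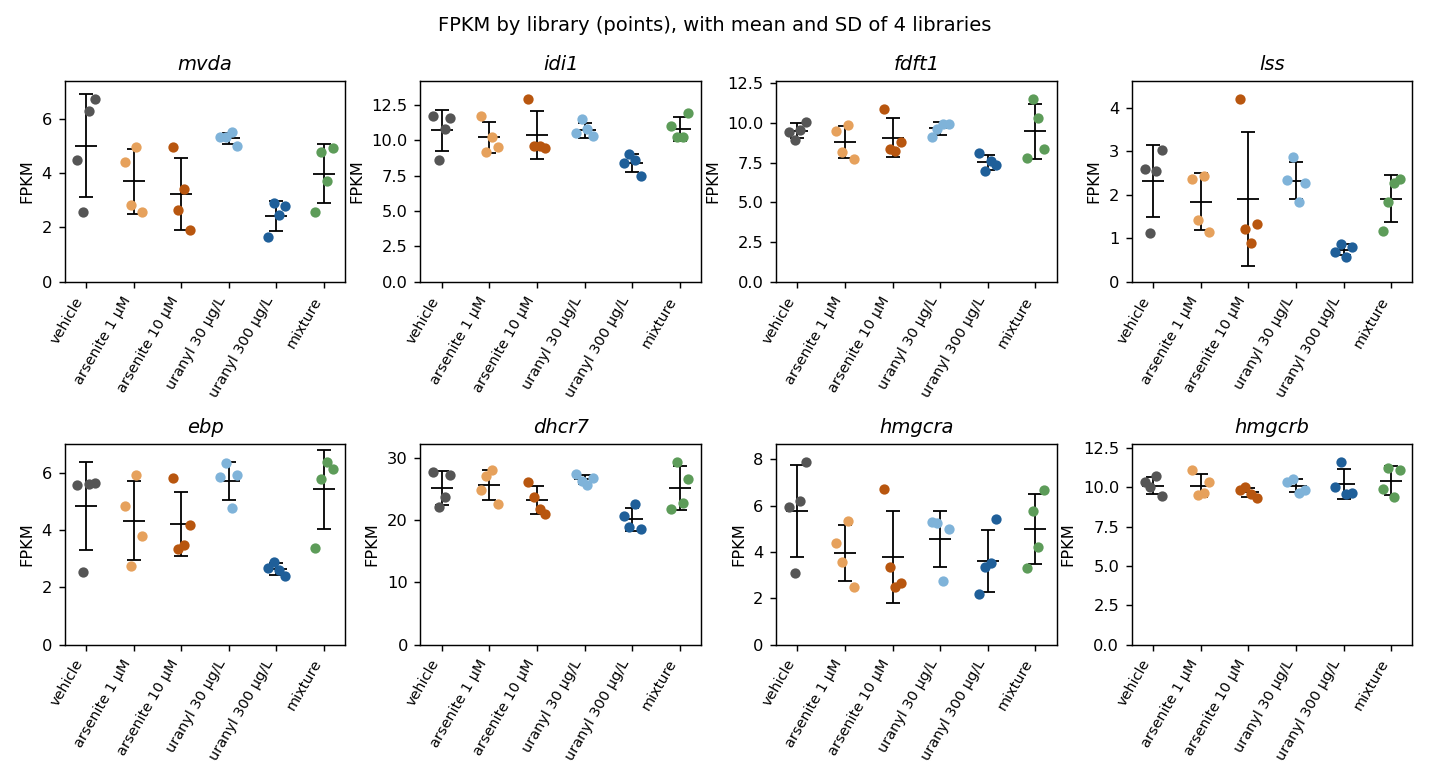
FPKM of 8 genes in each library (points, replicates 1 to 4 from left to right) with the mean and SD of the 4 libraries of each group. The 6 genes called at 300 against 30 µg/L uranyl nitrate are followed by the reductase pair: lss at 300 µg/L lies between 0.577 and 0.87 FPKM, hmgcra spans 2.19 to 7.89 over all groups and hmgcrb 9.29 to 11.6.

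After lanosterol, 2 of 8 enzyme genes fell. ebp measured 2.67, 2.87, 2.61 and 2.39 FPKM at 300 µg/L, 5.84, 6.33, 4.77 and 5.92 at 30 µg/L, and 5.57, 2.55, 5.62 and 5.65 in vehicle. The ebp values were 4.83, 2.74, 5.93 and 3.81 FPKM with 1 µM arsenite, 5.81, 3.35, 3.49 and 4.18 with 10 µM, and 3.36, 5.78, 6.38 and 6.15 with both metals. ebp, the sterol isomerase gene, showed no overlap between the uranyl doses and fell by 0.88 (SE 0.207, adjusted p = 0.0162), from 5.72 ± 0.666 to 2.64 ± 0.197 FPKM. Vehicle replicate 2 lay among the libraries at 300 µg/L and the other 3 vehicle libraries well above them. dhcr7 measured 20.6, 18.8, 22.6 and 18.6 FPKM at 300 µg/L, 27.3, 26.3, 25.6 and 26.8 at 30 µg/L, and 27.7, 22, 23.6 and 27.2 in vehicle. The dhcr7 values were 24.8, 27, 28 and 22.5 FPKM with 1 µM arsenite, 26.1, 23.7, 21.8 and 21 with 10 µM, and 21.7, 29.3, 22.7 and 26.5 with both metals. dhcr7, whose product carries out the final reduction to cholesterol, likewise had no overlap between the uranyl doses and fell by 0.38 (SE 0.093, adjusted p = 0.019). Its vehicle replicate 2 lay just under the highest library at 300 µg/L.

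cyp51 measured 6.2, 6.74, 7.78 and 10.6 FPKM at 300 µg/L, 16, 15.6, 10.5 and 14 at 30 µg/L, and 15.5, 9.74, 16.2 and 23.1 in vehicle. The cyp51 values were 15.2, 11.9, 17.6 and 8.79 FPKM with 1 µM arsenite, 19.6, 7.86, 10.5 and 8.05 with 10 µM, and 11.6, 17.6, 12.3 and 15.8 with both metals. cyp51 encodes the demethylase that takes the first methyl group from lanosterol and is the animal counterpart of the target of azole antifungals. Replicate 4 at 300 µg/L lay just above replicate 3 at 30 µg/L, and the fold change was -0.77 (SE 0.259, adjusted p = 0.0766). Against vehicle, where only replicate 2 lay within the range at 300 µg/L, it was -0.93 (SE 0.259, adjusted p = 0.0683). The other 5 genes of this stretch were not called at 300 against 30 µg/L, with fold changes of -0.62 for the desaturase gene sc5d, -0.45 for the sterol reductase gene hsd17b7, -0.33 for the dehydrogenase gene nsdhl, -0.31 for the reductase gene tm7sf2 and -0.16 for the methylsterol oxidase gene msmo1. Their adjusted p-values ran from 0.0962 for hsd17b7 to 0.718 for msmo1. The uranyl doses did not overlap in hsd17b7 and nsdhl, and overlapped in sc5d, tm7sf2 and msmo1.

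None of the 6 regulatory and uptake genes was called, and their fold changes for 300 against 30 µg/L ran from -0.15 for srebf2 to 0.13 for ldlra. srebf2 measured 19.5, 20.6, 20.0 and 20.0 FPKM at 300 µg/L, 24.7, 22, 20.1 and 22.8 at 30 µg/L, and 23.1, 21.6, 23.1 and 24.1 in vehicle. The srebf2 values were 25.4, 20.9, 23.2 and 23.5 FPKM with 1 µM arsenite, 23.5, 19.8, 21.4 and 23.3 with 10 µM, and 20.2, 26.2, 25.1 and 23.7 with both metals. srebf2 encodes the SREBP of sterol genes. Its libraries at 300 µg/L lay below all vehicle libraries but overlapped with 30 µg/L, and the fold changes of -0.19 (SE 0.0739, adjusted p = 0.19) and -0.15 (SE 0.0739, adjusted p = 0.25) did not pass. srebf1 measured 14.8, 13.6, 11.6 and 13.4 FPKM at 300 µg/L, 13.8, 12, 12.3 and 12.3 at 30 µg/L, and 13.4, 13.4, 11 and 14.2 in vehicle. The srebf1 values were 14.1, 12.9, 12.8 and 13.5 FPKM with 1 µM arsenite, 12.8, 14.4, 12.8 and 16.4 with 10 µM, and 10.1, 16.4, 11.8 and 12.5 with both metals. All groups overlapped in srebf1, with fold changes of 0.04 (SE 0.107) against vehicle and 0.08 (SE 0.107) against 30 µg/L.

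insig1 measured 0.689, 1.07, 1.2 and 1.64 FPKM at 300 µg/L, 2.05, 1.3, 0.959 and 1.12 at 30 µg/L, and 0.941, 0.974, 1.2 and 0.874 in vehicle. The insig1 values were 0.819, 0.854, 1.26 and 1.32 FPKM with 1 µM arsenite, 1.01, 0.68, 0.931 and 0.885 with 10 µM, and 2.09, 1.3, 0.9 and 1.66 with both metals. insig1 encodes the INSIG whose gene is itself an SREBP target in mammals. Its groups overlapped, with single high libraries in 30 µg/L (replicate 1) and the mixture (replicate 1), and the fold change of 300 against 30 µg/L was -0.13 (SE 0.152, adjusted p = 0.685). insig2, its more abundant relative, stood at 10.2 ± 1.28 against 10.8 ± 0.508 FPKM (-0.09, adjusted p = 0.693).

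ldlra measured 17.5, 15.5, 16.7 and 16.3 FPKM at 300 µg/L, 17.1, 16.1, 13.9 and 13 at 30 µg/L, and 15.8, 13.8, 13.6 and 15.7 in vehicle. The ldlra values were 17.7, 19.4, 14.8 and 17.2 FPKM with 1 µM arsenite, 16.6, 16.5, 20.6 and 17.1 with 10 µM, and 17.8, 19.3, 15.9 and 15.2 with both metals. ldlra encodes the receptor that takes up low-density lipoprotein. It was the member with the highest fold change at 300 against 30 µg/L, 0.13 (SE 0.0921, adjusted p = 0.45), with overlap. Against vehicle ldlra was positive in all 5 exposures, from 0.02 at 30 µg/L uranyl nitrate to 0.25 at 10 µM arsenite (SE 0.0921, adjusted p = 0.307), and at 10 µM arsenite all 4 libraries lay above all vehicle libraries. These 5 values share the vehicle libraries. stard4, whose product carries cholesterol between membranes, measured 12.5 ± 0.374 FPKM at 300 µg/L, 11.9 ± 1.1 at 30 µg/L and 14.6 ± 1.45 in vehicle.

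None of the 4 members of fatty acid synthesis was called in any of the 10 comparisons. fasn measured 8.26, 7.48, 7.08 and 7.45 FPKM at 300 µg/L, 8.19, 6.62, 8.54 and 9 at 30 µg/L, and 8.39, 8.08, 7.46 and 8.69 in vehicle. The fasn values were 8.88, 7, 6.86 and 6.67 FPKM with 1 µM arsenite, 7.66, 6.77, 7.88 and 7.94 with 10 µM, and 5.61, 7.51, 7.42 and 7.89 with both metals. fasn encodes fatty acid synthase, and its groups overlapped throughout, with a fold change of -0.08 (SE 0.0962, adjusted p = 0.703) for 300 against 30 µg/L. scd measured 0.558, 0.401, 0.272 and 0.237 FPKM at 300 µg/L, 0.573, 0.411, 0.421 and 0.613 at 30 µg/L, and 0.216, 0.468, 0.368 and 0.522 in vehicle. The scd values were 0.549, 0.526, 0.64 and 0.429 FPKM with 1 µM arsenite, 0.745, 0.196, 0.426 and 0.254 with 10 µM, and 0.399, 0.54, 0.677 and 0.766 with both metals. scd, the desaturase gene that makes monounsaturated fatty acids, rested on 11 to 45 reads per library, and its groups overlapped (-0.14, SE 0.114, adjusted p = 0.523). acaca, the acetyl-CoA carboxylase gene, had a fold change of 0.09 (adjusted p = 0.785) and elovl6, an elongase gene, of -0.21 (adjusted p = 0.253).

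Against vehicle, which asks what the exposure itself did, limma called none of the 32 genes at 300 µg/L, where 1.77% of all genes were called. The same held for limma-voom on recovered reads. This comparison shares its libraries at 300 µg/L with the comparison of doses. Against vehicle 27 members were negative and 5 positive, with a median of -0.25 against -0.0046 over all genes. At an unadjusted p under 0.05, 17 members were lower and none was higher, against 9.29% of all genes lower. In 6 members all libraries at 300 µg/L lay below all vehicle libraries (fdft1, lss, pmvk, tm7sf2, srebf2 and stard4), or 18.8% against 5.09% of all genes. The smallest adjusted p-values were 0.0638 for lss (-0.90, SE 0.247) and 0.0683 for cyp51.

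This count changed when 1 vehicle library was left out. Without vehicle replicate 2, 10 members were called, all lower (acat2, cyp51, dhcr7, ebp, hmgcs1, hsd17b7, idi1, lss, mvda and sqlea), while the share of all genes called lower went from 0.895% to 1.97%. ebp then had a fold change of -0.86 (SE 0.187, adjusted p = 0.0172), against -0.64 (SE 0.207, adjusted p = 0.112) with all vehicle libraries. Leaving out any of the other 7 libraries of the comparison left 0 members called. Vehicle replicate 2 was the lowest of its group in 17 of 21 enzymes, whereas over all genes tested it was the lowest in 24.3%. It had the highest recovered read total of the 24 libraries, 22987096, against 16581496 to 17732618 in the other 3 vehicle libraries. It also had the lowest sums of liver markers (3413 FPKM, the other 3 vehicle libraries 4253 to 5076) and of yolk and lipoprotein markers (3038 FPKM, the others 3752 to 4308), and the lowest sum of intestinal markers (1051 FPKM, the others 1224 to 1454). Its sums were the highest of the group for muscle (10150 FPKM, the others 9464 to 9999), neuron (494, the others 461 to 476), myelin (192, the others 176 to 188) and adipocyte markers (75.2, the others 59.3 to 67.5). For skin markers its sum was the lowest, though close to the next (3138 FPKM, the others 3144 to 3658). Over all vehicle libraries, the median fold change at 300 µg/L was -0.16 for the liver markers and -0.15 for the yolk and lipoprotein markers, none of them called. The intestinal gene fabp2 (0.60, adjusted p = 0.0129) and cebpa of the adipocyte list (0.23, adjusted p = 0.0372) were higher. Their lists as a whole were not: the median was -0.0 for the 8 intestinal genes tested and -0.06 for the 3 adipocyte genes tested. The part of these markers and of depth in the enzyme levels was not tested.

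At 30 µg/L uranyl nitrate limma called no member against vehicle, and 0.0% of all genes. The members were split evenly, 16 positive and 16 negative, with a median of 0.01. At an unadjusted p under 0.05, which 7.14% of all genes reached, the only member was stard4, at 11.9 ± 1.1 against 14.6 ± 1.45 FPKM (-0.27, SE 0.0867, adjusted p = 0.477). The 21 enzymes sat near the vehicle level at the lower dose: their mean deviation from the average over all libraries was 0.13 ± 0.09 at 30 µg/L, 0.12 ± 0.25 in vehicle and -0.30 ± 0.08 at 300 µg/L.

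No member passed limma's test at either arsenite dose. At 1 µM 0.132% of all genes and none of the members were called, and at 10 µM 0.727% of all genes and again none. At 10 µM 26 members were negative, with a median of -0.09 against 0.0083 over all genes, and 3 were lower and 1 higher at an unadjusted p under 0.05, reached by 10.3% of all genes. The member with the smallest p was stard4, at 11.2 ± 0.538 FPKM against 14.6 ± 1.45 in vehicle (-0.35, SE 0.0867, adjusted p = 0.066), without overlap. It was the 1 member with all 4 libraries below vehicle, as were 2.41% of all genes, and ldlra the 1 with all 4 above, as were 3.73%. In the fit without vehicle replicate 2, and in none that left out another library, stard4 was called (adjusted p = 0.0331), along with 0.794% of all genes. At 1 µM 23 members were negative (median -0.08), where 52.8% of all genes were negative (median -0.0068). At an unadjusted p under 0.05, reached by 6.74% of all genes, 2 members were lower and 1 higher. Between the arsenite doses no member was called, against 0.176% of all genes, and none had an unadjusted p under 0.05, against 6.11%.

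The group at 10 µM held 1 library that stood apart from its own group. Replicate 1 was the highest of its group in 18 of 21 enzymes, against 26.7% of all genes, with lss at 4.19 FPKM against 0.888 to 1.33 in the other 3 and sqlea at 8.45 against 2.86 to 3.41. Its sums of liver markers (3897 FPKM) and of yolk and lipoprotein markers (3157 FPKM) lay within the range of the other 3 libraries. The same held for myelin, neuron and adipocyte markers. Its sums of intestinal markers (1021 FPKM, the others 1100 to 1149) and skin markers (3205, the others 3231 to 3547) were the lowest of the group. That of muscle markers was the highest (9635 FPKM, the others 9039 to 9474). For the whole group against vehicle, the intestinal genes fabp2 (0.67, adjusted p = 0.00362) and vil1 (0.44, adjusted p = 0.00257) were higher and apoa4b.2 was lower (-0.40, adjusted p = 0.0311). The liver markers had a median of -0.26 and the yolk and lipoprotein markers of -0.19, with none called, and the part of these markers in the members' values was not tested. Without replicate 1 the median of the members against vehicle was -0.15 and hmgcs1 had a fold change of -0.66 (SE 0.168, adjusted p = 0.0872), but no member was called.

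In the mixture no member was called by limma against vehicle (0.406% of all genes), against arsenite at 1 µM (0.00441%) or against uranyl nitrate at 30 µg/L (0.238%). Each of these had 1 member higher and none lower at an unadjusted p under 0.05: ldlra against vehicle (0.19, adjusted p = 0.458), aclya against arsenite (0.09, adjusted p = 0.585) and stard4 against uranyl nitrate (0.25, adjusted p = 0.262). Over all genes 10.7%, 7.93% and 11.2% reached that p in these comparisons. Against arsenite alone 25 members were positive, with a median of 0.08, where 54.8% of all genes were negative (median -0.0133). Against uranyl nitrate alone 15 members were positive and 17 negative, where 56.1% of all genes were negative. The departure from additivity, the mixture minus both components plus vehicle, was called for no member and for 0.0353% of all genes. Among the members 1 had an unadjusted p under 0.05, against 7.33% of all genes: stard4 (0.44, SE 0.123, adjusted p = 0.337), which stood at 12.7 ± 1.15 FPKM with 1 µM arsenite, 11.9 ± 1.1 with 30 µg/L uranyl nitrate and 14.4 ± 2.06 in the mixture.

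**Figure D4:**
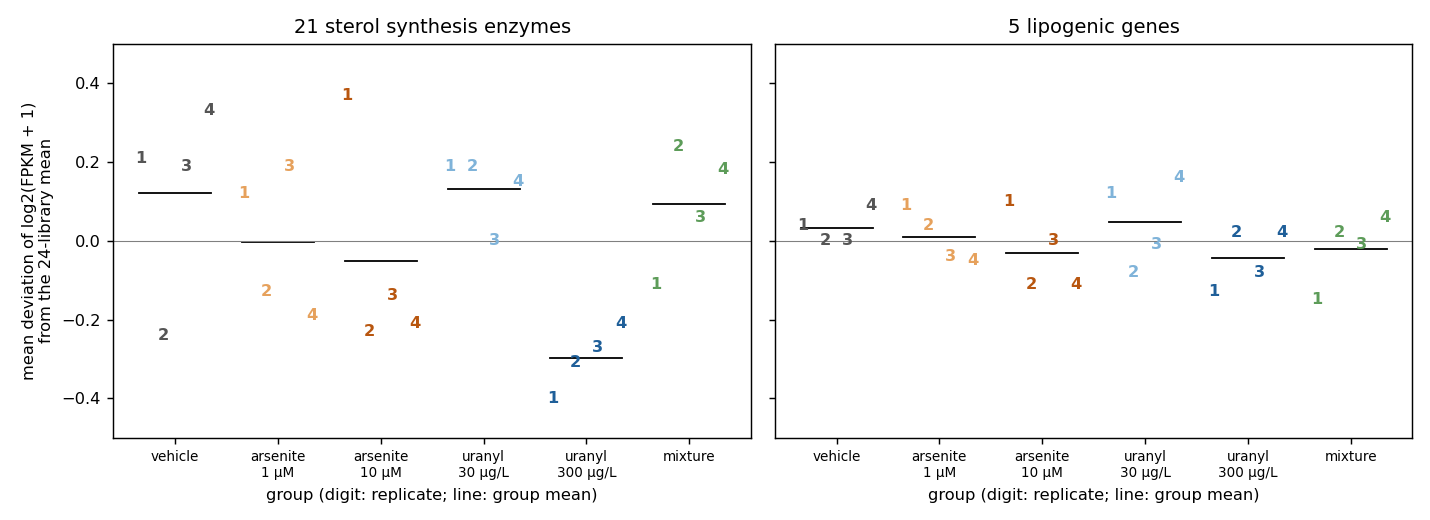
Each digit is a library, named by its replicate number, at the mean deviation of log2(FPKM + 1) from the average over 24 libraries, for the 21 sterol synthesis enzymes (left) and the 5 lipogenic genes (right). Lines are group means. The enzymes run from -0.40 to -0.21 at 300 µg/L uranyl nitrate, vehicle replicate 2 lies at -0.24 and replicate 1 of 10 µM arsenite at 0.37, while the lipogenic genes stay between -0.15 and 0.16.

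The enzymes moved together from library to library within groups as well. The mean deviation of the 21 enzymes was 0.21, -0.24, 0.19 and 0.33 in the vehicle libraries and 0.37, -0.23, -0.14 and -0.21 at 10 µM arsenite. It was 0.12, -0.13, 0.19 and -0.19 at 1 µM arsenite and -0.11, 0.24, 0.06 and 0.18 in the mixture. At 300 µg/L it was -0.40, -0.31, -0.27 and -0.21, all below the 0.19, 0.19, -0.00 and 0.15 of 30 µg/L. Vehicle replicate 2 and replicate 2 of 10 µM arsenite lay within the range of the libraries at 300 µg/L, and all other libraries outside that dose lay above it, replicate 4 of 10 µM arsenite by less than the rounding.

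After group means were removed, the 210 pairs of enzymes had a median Pearson correlation of 0.55 over 24 libraries, and 184 pairs were above 0. An enzyme paired with any tested gene had a median of 0.009. These are descriptions: the points share their libraries, and with them depth and tissue make-up. cyp51 (median 0.75 with the other enzymes), sqlea (0.74), hmgcs1 (0.72) and lss (0.67) followed the rest most closely. ggps1 (-0.13), mvk (0.06) and hmgcrb (0.10) followed it least. Of the genes that are not sterol enzymes, srebf2 (0.47) and aclya (0.44) came nearest, whereas srebf1 (0.02) and ldlra (0.01) did not track the enzymes. The 10 pairs of lipogenic genes had a median of 0.17.

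Other genes of lipid metabolism were read from the same fit, 155 of them tested. At 300 against 30 µg/L, 20 of the 155 were called, against 6.65% of all genes in either direction. None of 11 further sterol synthesis genes and none of 12 genes of isoprenoid branches was called at 300 against 30 µg/L. Of the 11, 8 were negative, with a median of -0.22. At an unadjusted p under 0.05, 4 of them were lower and 0 higher, against 11.8% of all genes lower. Of the 12, 9 were negative, with a median of -0.13, and at that p 0 were lower and 1 higher. Over all genes 50.4% were negative, with a median of -0.0014. Of 14 genes of SREBP processing and sterol sensing, only erlin1 fell (-0.26, SE 0.0578, adjusted p = 0.0124). This single call is 7.14% of the list, against 4.03% of all genes called lower. The erlin1 product binds INSIG and SREBP complexes in the endoplasmic reticulum of mammals. Of 34 genes of sterol uptake, transport and export, 3 rose and 0 fell, or 8.82%. Over all genes 1509 were called in either direction, or 6.65%, and 913 of these were lower. The genes of this list that rose were abca1a, mylipa (0.41, adjusted p = 0.0114) and mylipb (0.28, adjusted p = 0.0463). abca1a, the cholesterol efflux pump gene, went from 22.6 ± 1.84 to 33.6 ± 2.25 FPKM (0.55, SE 0.11, adjusted p = 0.00818). The mammalian counterpart of mylipa and mylipb is a ubiquitin ligase that marks the low-density lipoprotein receptor for breakdown.

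Among 37 further genes of fatty acid synthesis and elongation, 2 rose and 3 fell, or 13.5%, against 6.65% of all genes in either direction. acacb, an acetyl-CoA carboxylase gene tied to the control of fatty acid oxidation, rose from 26.9 ± 2.12 to 35.8 ± 1.71 FPKM (0.40, adjusted p = 0.0052), and hacd2, a dehydratase gene of fatty acid elongation, fell (-0.22, adjusted p = 0.0157). Of 19 genes of glycerolipid metabolism, 2 rose and 2 fell, or 21.1%. lpin1a, a phosphatidate phosphatase gene, went from 39.1 ± 5.04 to 63.0 ± 4.56 FPKM (0.68, adjusted p = 0.0052). The genes that fell were dgat1a (-0.24, adjusted p = 0.0243) and pcyt2 (-0.23, adjusted p = 0.0274). Of 28 genes tied to fatty acid oxidation, 3 rose and 4 fell. Those that rose were the pyruvate dehydrogenase kinase genes pdk2a, pdk2b and pdk4, and those that fell were hadhab, acaa1, hadh and cpt2. In this comparison pdk2b, pdk4, hadh and cpt2 were named after their values were seen. These 7 calls were the highest share of any of these other lists. That share lay above the 6.65% of all genes and below the 28.6% of the 21 sterol synthesis enzymes. In this comparison of doses, high shares of calls were not limited to the sterol enzymes. The lists were chosen with earlier results of these data known, so their shares are descriptions. pdk2a, a pyruvate dehydrogenase kinase gene, rose (0.64, adjusted p = 0.0106), while hadhab, a subunit gene of the mitochondrial trifunctional protein, fell (-0.33, adjusted p = 0.0127), as did the thiolase gene acaa1 (-0.28, adjusted p = 0.0166). Leaving out single libraries moved the 20 calls among the 155 genes to between 8, without replicate 4 of 300 µg/L, and 21, without replicate 3. Counts of 9 and 10 were obtained without replicates 3 and 4 of 30 µg/L, and of 12 without replicate 1 of 300 µg/L.

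Against vehicle at 300 µg/L, 4 of the 155 genes were called, near the 1.77% of all genes: acacb (0.38) and hadhab (-0.29), and, named after their values were seen, pdk4 (0.40) and hadh (-0.22). Without vehicle replicate 2 this count was 14, while the count over all genes went from 402 to 769, and without any of the other 7 libraries it was 0 to 6. At 10 µM arsenite me1, the malic enzyme gene that supplies NADPH, stood at 19.4 ± 1.6 FPKM against 15.0 ± 1.41 in vehicle (higher by 0.35, adjusted p = 0.00901, SE 0.0676). It was also higher than at 1 µM (0.40, adjusted p = 0.00748). me1 was the only gene of these lists called in these comparisons, in which 0.727% and 0.176% of all genes were called. In the mixture 1 gene of these lists, elovl8a, an elongase gene named after its value was seen, was lower than at 30 µg/L uranyl nitrate (-0.73, adjusted p = 0.0245). Over all genes 0.238% were called there. Single calls among 155 genes are no result about the lists.

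Marker genes of the tissues that handle lipids were read in the comparison of uranyl doses. The sum of 5 yolk and lipoprotein genes was 2875 to 3519 FPKM at 300 µg/L and 3549 to 4059 at 30 µg/L, without overlap, and that of 10 liver genes 2971 to 4042 against 3893 to 5005, with overlap. Of these, apoa2 was the only one called (-0.49, SE 0.137, adjusted p = 0.0348). The median fold change was -0.12 for the liver genes and -0.23 for the yolk and lipoprotein genes, against -0.33 for the 21 enzymes. Of the intestinal genes, cdh17 was lower (-0.22, adjusted p = 0.0217), with a median of -0.06 for the list. Of the skin genes krt4 was lower (-0.35, adjusted p = 0.0341), with a median of -0.07 for the list. No gene called stood among the myelin, neuron, muscle and adipocyte markers in this comparison, and no marker of any list was at 0 in all libraries. The part of tissue make-up in the lower enzyme levels was not tested.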

How the data were processed

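Polyadenylated RNA of pooled whole larvae was sequenced in 24 libraries, 4 in each of 6 groups taken from the labels. The authors deposited 1 table of FPKM values covering 39974 NCBI Gene numbers, and the submitters' processing notes name HISAT2 2.1.0, HTSeq 0.6.1, DESeq2 1.10.1 and build GRCz11, with no role or order. The strand setting is not given in the sources used here, so that reads of overlapping genes on opposite strands may not be told apart. All value columns were used, and the number not used was 0. Symbols came from a RefSeq table of assembly GRCz12tu, used for names only. Promoter sequences were not analysed here.

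Within each gene the FPKM values were whole multiples of 1 step after a factor per library was divided out, which gave whole read numbers for 100.0% of values above 0 (tolerance 0.0001 reads). Recovered totals had a median of 18261478 reads. The number of reads sets counting error, and any other part of depth in the members' values was not tested.

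Genes with FPKM of at least 0.5 in at least 4 libraries were tested (22682) on log2(FPKM + 1) using limma 3.58.1 under R 4.3.3, with a variance trend, in 1 fit of 6 group means with 18 residual degrees of freedom and no block. P-values are two-sided, with Benjamini-Hochberg adjustment within each of 10 contrasts, and calls need an adjusted p below 0.05. The fit was checked on simulated data. No set test was run.

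The members and the lists of other pathway genes were chosen with earlier results of these data known. Values in every library are given for members called in any contrast and for hmgcra, hmgcs1, sqlea, cyp51, ldlra, insig1, srebf1, srebf2, fasn and scd. Other pathway genes were named where called, at most 3 per list by adjusted p, with exceptions stated. Alternatives were a pseudocount of 0.1, no filter, a filter at FPKM 1, rescaling to the same total, median-of-ratios scaling, no variance trend, only the groups compared, the replicate number as a block, limma-voom on the recovered reads, and leaving out each library in turn. Replicate numbers did not pair libraries: deviations of same-numbered libraries correlated with a median of 0.000194 over 60 pairs.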

Additional observations from a re-analysis of the deposited data

Results flagged for a closer look

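In 198 groups of 4 libraries (members and the mean deviation of the enzymes, in 6 exposures), the highest or lowest library was set against the other 3 by Dixon's test at the 95% level. It stood apart in 16. Chance alone flags about 1 in 20 such groups, and the genes share their libraries.

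Replicate 1 of 10 µM arsenite was the high library in 6 of these. It held 33.8 FPKM of aclya (the others 30.9 to 31.3), 22.5 of hmgcs1 (11 to 11.7), 12.9 of idi1 (9.48 to 9.61), 8.45 of sqlea (2.86 to 3.41) and 4.19 of lss (0.888 to 1.33). Its mean deviation of the 21 enzymes was 0.37 (the others -0.23 to -0.14).

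In vehicle, replicate 2 held 2.55 FPKM of ebp, against 5.57 to 5.65 in the other 3. At 1 µM arsenite replicate 1 was high in hsd17b7 (4.16 FPKM against 2.89 to 2.95) and fasn (8.88 against 6.67 to 7.0) and low in stard4 (11 against 13.2 to 13.4). At 10 µM replicate 3 was high in ldlra (20.6 FPKM against 16.5 to 17.1).

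At 30 µg/L uranyl nitrate replicate 3 was low in hmgcra (2.74 FPKM against 5.0 to 5.28) and replicate 4 in fdps (16.7 against 18.8 to 19.1). At 300 µg/L replicate 2 was low in msmo1 (1.76 FPKM against 2.18 to 2.23) and replicate 4 in stard4 (11.9 against 12.6 to 12.7). In the mixture replicate 4 was high in acat2 (13.2 FPKM against 12.3 to 12.4).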

How the results depend on the processing

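For 300 against 30 µg/L uranyl nitrate (6 members), 7 were called with a pseudocount of 0.1 or a filter at FPKM 1, 5 with median-of-ratios scaling, 4 with no filter, the same total FPKM, no variance trend or limma-voom, and 11 in a fit of only the 2 groups. dhcr7, ebp, lss and mvda were called in all 9 settings that kept every library, the replicate block included, and leaving out single libraries gave 0 to 3. For 300 µg/L against vehicle (0 members), 1 was called with a pseudocount of 0.1 (lss, adjusted p = 0.0418) and 0 to 10 when single libraries were left out. For 10 µM arsenite against vehicle the leave-one-out range was 0 to 1. In the other 7 contrasts no setting called a member. With the replicate number as a block, although the numbers do not pair the libraries (2 of 60 same-numbered pairs had a correlation over 0.1, and 8 of 24 libraries were closest to their own number), 5 members were called for 300 against 30 µg/L (dhcr7, ebp, idi1, lss and mvda) and 0 against vehicle.

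The 4 other pathway genes called at 300 µg/L against vehicle became 2 with no filter, 1 with no variance trend, and 2 with only the groups compared and with limma-voom, and 0 to 14 when single libraries were left out. The 20 called against 30 µg/L became 8 to 21. Among genes with values given in every library, insig1, srebf1 and scd, near 0 at 300 µg/L against vehicle, changed sign. insig1 was -0.01 without replicate 4 of 300 µg/L (range -0.01 to 0.20). srebf1 was -0.04 without vehicle replicate 3 and -0.01 without replicate 1 of 300 µg/L (range -0.04 to 0.10). scd was 0.02 without vehicle replicate 4 or replicate 4 of 300 µg/L and 0.0 without its replicate 3 (range -0.09 to 0.02). Of the other members, hmgcrb changed sign in some settings, and acaca went to -0.08 without vehicle replicate 2. Over all genes, 402 were called at 300 µg/L against vehicle, 96 in a fit of only those groups and 63 to 769 without single libraries. Rescaling to the same total moved the split there from 203 lower of 402 to 104 lower of 339. The causes of these changes were not tested. Leaving out a library also leaves fewer samples, and the part of this was not tested either. Depth limits scd most, at 11 to 45 reads per library.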

Other observations

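Outside the members, 18350 genes were ranked by how closely their log2(FPKM + 1) followed the mean of the 21 enzymes. Group means were removed from both, and Pearson's r was taken over the 24 libraries, so that differences between exposures do not enter it. This is a description: the points share their libraries, and with them depth and tissue make-up. The highest were ube2t, a ubiquitin-conjugating enzyme gene (r = 0.85), leap2, which encodes a liver-expressed peptide (0.83), the nuclear export receptor gene cse1l (0.83), the histone chaperone gene supt16h (0.81) and rpia, an enzyme of the pentose phosphate pathway (0.80). The next 5 were ak3, aacs, hadhab and slc39a13 (0.78 each) and rnf20 (0.77). Of these, aacs encodes the cytosolic enzyme that returns acetoacetate to lipid synthesis. The lowest were the muscle calcium pump gene atp2a1l (-0.79), vim (-0.79), which encodes the intermediate filament vimentin, and timp4.3 (-0.78). mylipa, singled out here as a gene that rose at 300 against 30 µg/L, came behind several other genes, at -0.74. From that value the difference between groups had been removed.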
